A study of Homo sapiens with 6 samples.

Results

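Bypass receptor tyrosine kinases are cell-surface receptors that can feed the RAS-MAPK and PI3K-AKT cascades in place of EGFR when EGFR is blocked by a drug. The 10 genes described here, out of 60664 in the deposited table, were taken by their gene names: MET, AXL, MERTK, TYRO3, IGF1R, INSR, FGFR1, FGFR2, FGFR3 and EPHA2. No expression value entered that rule, but the receptors were chosen with earlier results of these data known. All libraries came from 67R cells, a line derived from NCI-H1975, human lung adenocarcinoma cells with mutant EGFR, and selected for resistance to the EGFR inhibitor ASK120067 by escalating doses of that drug. Cells received either a negative control siRNA (siNC, 3 libraries) or siRNA against BCAT1 (siBCAT1, 3 libraries), the latter directed at the cytosolic enzyme that transfers the amino group of branched-chain amino acids. The comparison asks how the mRNA of these receptors differed when BCAT1 was knocked down in resistant cells. Neither the length of the knockdown nor the presence of the inhibitor is given by the labels. The methods list 2 siRNA sequences against BCAT1 and give 1 of them the plain name siBCAT1, which the library titles carry, and parental cells have no library here. Because 67R is a selected resistant line and nothing states that the replicates were separate cultures, p-values measure only the spread between these libraries.

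A receptor tyrosine kinase spans the membrane, binds its ligand outside the cell, pairs with a second receptor and phosphorylates tyrosines on its own tail and on adaptor proteins. In lung cancers treated with EGFR inhibitors, MET, AXL and IGF1R are among the receptors best known for keeping these cascades active. The mRNA level says how much transcript is present and not how much receptor is phosphorylated.

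Values are TPM, an abundance of transcripts scaled for gene length and for the library's total, so that levels can be compared between genes. Read depth is not recoverable as a count from such values. The columns summed to between 992512 and 995593. BCAT1 (ENSG00000060982) measured 42.7, 42.2 and 29.8 TPM in the siNC libraries and 8.78, 7.10 and 8 TPM in the siBCAT1 libraries, each in replicate order, a log2 fold change of -2.12 (SE 0.15, adjusted p = 0.000272, limma with Benjamini-Hochberg adjustment). Fold changes are on the scale of log2(TPM + 1), siBCAT1 over siNC, which understates the change of low genes. The 6 epithelial markers (EPCAM, CDH1 and 4 keratins) were all tested, and 5 of them fell while none rose (limma; at an unadjusted p under 0.05, 5 were lower and 1, EPCAM, was higher), with a summed level of 2550 to 2950 TPM in siNC and 1650 to 1940 TPM in siBCAT1. The lung lineage markers NKX2-1, NAPSA and SFTPB never exceeded 0.33 TPM. Of 6 fibroblast markers, 2 fell, DCN and LUM were listed at 0 in every library, and the sum was 253 to 274 TPM in siNC and 189 to 245 TPM in siBCAT1, COL1A2 contributing most. Of 4 leukocyte markers, 1 rose (CD68), the sum going from between 30.3 and 39.2 TPM to between 53.5 and 60.7 TPM, while CD3E was listed at 0 and PTPRC reached 0.33 TPM in siBCAT1 replicate 2 alone. The 3 endothelial markers summed to at most 2.61 TPM. In bulk RNA, fewer cells of a kind and less RNA per cell cannot be told apart, and the part of these markers in the receptor values was not tested.

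All 10 receptors had a mean of 1 TPM or more across the libraries, the filter that left 14286 genes to test. With limma and Benjamini-Hochberg adjustment over those genes, AXL and EPHA2 fell, TYRO3 rose, and 7 receptors did not pass the threshold of 0.05. Of all tested genes, 27.1% passed, 16.7% upward and 10.4% downward, so 3 of 10 receptors (30%) is close to the share of genes in general. The upward lean of all genes depended on scaling: 2382 rose and 1483 fell as reported, 1957 and 1802 with median-ratio scaling, and 2042 and 1865 with quantile normalization. The median log2 fold change of the 10 receptors was -0.07, and that of all tested genes 0.04. For 4 receptors (AXL, EPHA2, MET and TYRO3) no siBCAT1 library lay within the siNC range, with TYRO3 the 1 above it and the other 3 below. Of all tested genes, 44.1% had groups that did not overlap, 26.1% with siBCAT1 higher and 18% with siBCAT1 lower. No receptor had a log2 fold change of 1 or more in either direction.

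**Figure D1:**
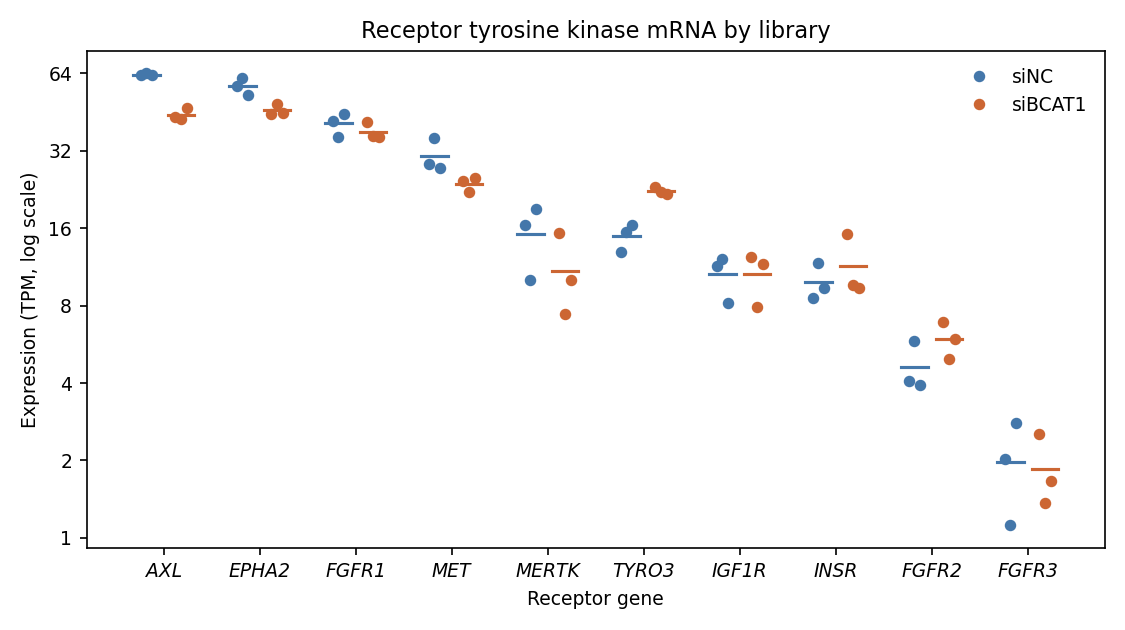
TPM on a logarithmic axis for each of the 10 receptors, with 1 point per library (3 siNC, 3 siBCAT1) and a bar at the mean of each group. AXL, EPHA2 and MET lie lower in every siBCAT1 library, TYRO3 lies higher, and the points of the other 6 receptors overlap.

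The TAM receptors AXL, MERTK and TYRO3 bind GAS6, and MERTK and TYRO3 also bind protein S, ligands that bridge them to phosphatidylserine on dying cells. AXL (ENSG00000167601, chr19:41219203-41261766, plus strand, GRCh38) was the most abundant of the 10 in control cells, above 84.2% of tested genes. Its level was 62.9, 64.02 and 62.9 TPM in siNC replicates 1 to 3 and 43.2, 42.5 and 47.1 TPM in siBCAT1. The control libraries differed by about 1 TPM and every siBCAT1 library was far below them. The means were 63.3 ± 0.638 and 44.2 ± 2.49 TPM (SD, n = 3 each), lower by 30.1%, and the log2 fold change was -0.51 (SE 0.07, 95% interval -0.66 to -0.35, adjusted p = 0.00213, limma). This fall passed the threshold in all 15 alternative fits, those leaving out each library included. An antisense gene on the opposite strand, AC011510.1, reached at most 0.74 TPM.

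TYRO3 (ENSG00000092445, chr15:41557675-41583586, plus strand), the TAM receptor best studied in the nervous system, moved the other way. It measured 12.9, 15.5 and 16.4 TPM in siNC and 23.2, 22.2 and 21.8 TPM in siBCAT1. The lowest siBCAT1 library was above the highest siNC library. The means were 14.9 ± 1.82 and 22.4 ± 0.742 TPM, higher by 49.9%, with a log2 fold change of 0.56 (SE 0.10, 95% interval 0.32 to 0.80, adjusted p = 0.00815, limma). TYRO3 also kept its call in all 15 alternative fits, and its pseudogene copy TYRO3P never exceeded 0.09 TPM. MERTK (ENSG00000153208, chr2:111898479-112029561), the TAM receptor of phagocytes that clear dying cells, varied widely within groups. It stood at 16.4, 10.1 and 19.1 TPM in siNC and at 15.3, 7.43 and 10.1 TPM in siBCAT1, with replicate 2 the lowest of both groups. The groups overlapped, and the log2 fold change of -0.45 had a 95% interval from -1.13 to 0.24 (adjusted p = 0.299, limma), which spans a halving and no change alike.

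With AXL falling and TYRO3 rising, the makeup of TAM transcripts differed between the groups. AXL made up 68.2%, 71.5% and 63.9% of the summed TAM TPM in siNC and 52.9%, 58.9% and 59.7% in siBCAT1. AXL remained the largest share in every library, and the groups did not overlap. The mean share was 67.9% ± 3.8 in siNC and 57.2% ± 3.74 in siBCAT1, a difference of -10.7 percentage points (exact two-sided permutation test over libraries, p = 0.1, the smallest that 3 against 3 allows, and 0.25 adjusted over 5 such quantities). This design therefore cannot pass 0.05 by that test.

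**Figure D2:**
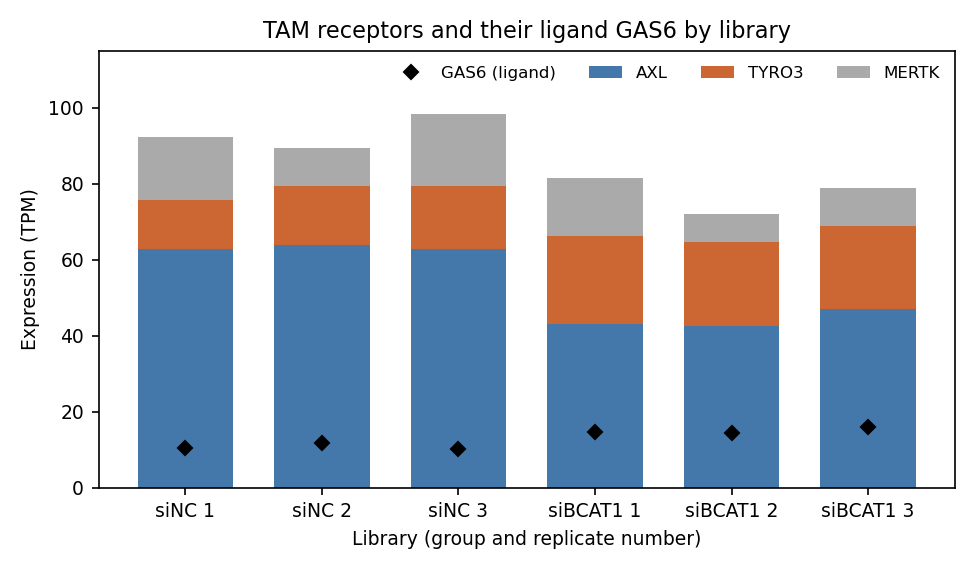
TPM of AXL, MERTK and TYRO3 stacked for each of the 6 libraries, bars starting at 0, with a black diamond at the TPM of GAS6. The AXL section runs from 62.9 to 64.02 TPM in siNC and from 42.5 to 47.1 TPM in siBCAT1, while the TYRO3 section is larger in every siBCAT1 library.

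GAS6, the vitamin K-dependent ligand that binds all TAM receptors, stood at 10.5, 11.9 and 10.2 TPM in siNC and at 14.6, 14.5 and 16.1 TPM in siBCAT1. Each siBCAT1 library was above each siNC library. The log2 fold change was 0.44 (SE 0.10, adjusted p = 0.0154, limma), and the call was lost without siNC replicate 1 (0.0639), siNC replicate 3 (0.0566) or siBCAT1 replicate 3 (0.0591). GAS6-AS1, on the opposite strand of the same locus, averaged 15.2 TPM in siNC and 19.0 TPM in siBCAT1, more than GAS6 itself. The library kit keeps strand, but whether strand was used in quantification is not stated, so the reads of GAS6 and GAS6-AS1 cannot be told apart here. PROS1, which encodes protein S, averaged 6.06 ± 0.932 TPM in siNC and 4.94 ± 0.50 TPM in siBCAT1 (log2 fold change -0.24, adjusted p = 0.247, limma).

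EPHA2 (ENSG00000142627, chr1:16124337-16156087, minus strand), the receptor for the membrane-bound ephrin-A ligands of neighbouring cells, was the second most abundant of the 10 in siNC. It measured 57.4, 61.5 and 52.6 TPM in siNC and 44.4, 48.8 and 44.9 TPM in siBCAT1. The highest siBCAT1 library was under the lowest siNC library by a few TPM. The means were 57.2 ± 4.43 and 46.0 ± 2.40 TPM, lower by 19.5%, and the log2 fold change was -0.30 (SE 0.08, 95% interval -0.49 to -0.12, adjusted p = 0.0296, limma). The call was lost without siNC replicate 1 (adjusted p = 0.0885), siNC replicate 2 (0.0607), siBCAT1 replicate 1 (0.0932) or siBCAT1 replicate 3 (0.0876), with no filter on low values (0.0609), after correction for GC content and length (0.0859) and without a variance trend (0.0551). An antisense gene there, AL451042.2, reached 1.4 TPM.

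Among the ephrin-A ligands, EFNA1, the one best known as a partner of EPHA2, stood at 32.1, 23.0 and 31.7 TPM in siNC and at 26.3, 19.1 and 18.6 TPM in siBCAT1. The groups overlapped, siNC replicate 2 lying under siBCAT1 replicate 1 (log2 fold change -0.43, adjusted p = 0.112, limma). EFNA5, a further ephrin-A, rose from 10.4 ± 0.147 to 14.3 ± 1.38 TPM (log2 fold change 0.42, SE 0.10, adjusted p = 0.0186, limma), a call lost without siNC replicate 1 (0.0682), siNC replicate 3 (0.0605), siBCAT1 replicate 1 (0.0555) or siBCAT1 replicate 2 (0.0654). EFNA3 and EFNA4 had log2 fold changes of -0.33 and -0.24 and did not pass (adjusted p = 0.275 and 0.089, limma).

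The sequence before the start sites of both receptors that fell was read from RefSeq promoters (GRCh38.p14, 250 bases before to 50 after each start) and searched on both strands for short words bound by known factors, which were chosen after the values were seen. The word GGAATG, bound by TEAD, was in 4 of the 15 promoters of the receptor genes, and in 14% of 35116 promoters genome-wide. The genes were AXL, EPHA2 and FGFR2. FGFR2, which did not pass the threshold, had matches 218 and 84 bases upstream of an annotated start. The stretches below are 30 bases long, written 5′ to 3′ on the gene's strand with the word in capitals, where it appears as CATTCC because it lies on the strand opposite to the gene. The EPHA2 match is 73 bases upstream of the start, at chr1:16156125-16156154 (minus strand), and the AXL match is 212 bases upstream of the later of its annotated starts, at chr19:41226531-41226560 (plus strand).
EPHA2: cccctttaaagaCATTCCtgagggcgggcg
AXL: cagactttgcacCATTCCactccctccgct
TYRO3, which rose, held no GGAATG in its window, and neither did MET. TGANTCA, the AP-1 word, was in 1 of the 15 promoters of the receptor genes, that of TYRO3 (7.71% of promoters genome-wide). GTAAACA, a forkhead word, was found in AXL (3.42% of promoters). ACGTG, the core of the HIF element, was in MET, AXL, IGF1R and FGFR2 (21.4%), and its longer form CACGTG, the MYC E-box that contains it, was in MET (7.26%). GGGCGG, bound by Sp1, was in 10 of the 15 promoters of the receptor genes, at least 1 for each of the 9 genes searched, and in 45.0% of all promoters. FGFR1 was not among the genes searched for any of these words. These are matches of letters, and whether any factor binds there was not measured.

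MET (ENSG00000105976, chr7:116672390-116798386, plus strand), the receptor for hepatocyte growth factor, stood at 28.6, 35.9 and 27.4 TPM in siNC and at 24.4, 22.0 and 25.0 TPM in siBCAT1. The groups did not overlap, and siNC replicate 2 was the library farthest from the rest. The means were 30.6 ± 4.62 and 23.8 ± 1.58 TPM and the log2 fold change was -0.34 (SE 0.12, 95% interval -0.61 to -0.07), which did not pass after adjustment (adjusted p = 0.0668, limma). It passed with a mean of at least 5 TPM required (0.0488), with median-ratio scaling (0.0496) and with quantile normalization (0.0422). Over all 15 alternatives the adjusted p ran from 0.0422 to 0.192 and the log2 fold change stayed negative, between -0.42 and -0.23. HGF, its ligand, was listed at 0 in 5 libraries and at 0.01 TPM in siBCAT1 replicate 1.

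IGF1R (ENSG00000140443, chr15:98648539-98964530, plus strand), the receptor for the insulin-like growth factors, measured 11.4, 12.2 and 8.20 TPM in siNC and 12.4, 7.93 and 11.6 TPM in siBCAT1. The groups covered nearly the same range, with means of 10.6 ± 2.12 and 10.7 ± 2.39 TPM and a 95% interval of the log2 fold change from -0.46 to 0.47 (adjusted p = 0.997, limma). INSR (ENSG00000171105, chr19:7112255-7294034, minus strand), the insulin receptor that forms hybrids with IGF1R, stood at 8.56, 11.7 and 9.36 TPM in siNC and at 15.2, 9.64 and 9.41 TPM in siBCAT1. The groups overlapped, and siBCAT1 replicate 1 alone lay above the siNC range. Its log2 fold change was 0.17 (95% interval -0.29 to 0.63, adjusted p = 0.561, limma) and came to -0.04 without that library. IGF1R made up 51.6% ± 5.26 of the summed TPM of the pair in siNC and 48.4% ± 5.90 in siBCAT1 (exact permutation p = 0.5). Their ligands were barely transcribed: IGF2 ranged from 0.05 to 0.13 TPM, IGF1 was above 0 in siNC replicate 2 alone (0.14 TPM), and INS was listed at 0 throughout.

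Among the fibroblast growth factor receptors with a kinase domain, FGFR1 to FGFR4, FGFR1 (ENSG00000077782, on chromosome 8) was the most abundant, at 41.9, 36.3 and 44.6 TPM in siNC and 41.3, 36.6 and 36.1 TPM in siBCAT1. The groups overlapped, and the log2 fold change was -0.10 (95% interval -0.33 to 0.13, adjusted p = 0.478, limma). The gene shares its locus with LETM2 on the opposite strand, which averaged 12.4 TPM in siNC and 14.6 TPM in siBCAT1. FGFR2 (ENSG00000066468, chr10:121478334-121598458, minus strand), whose isoforms mark epithelial or mesenchymal cells, stood at 4.09, 5.85 and 3.94 TPM in siNC and 6.89, 4.95 and 5.91 TPM in siBCAT1. The ranges overlapped (log2 fold change 0.30, 95% interval -0.11 to 0.72, adjusted p = 0.244, limma). FGFR3 (ENSG00000068078, chr4:1793293-1808872, plus strand), the family member that restrains bone growth, was the lowest of the 10. It measured 2.03, 1.12 and 2.79 TPM in siNC and 2.53, 1.37 and 1.66 TPM in siBCAT1, with overlapping ranges and a 95% interval from -0.68 to 0.59 (log2 fold change -0.04, adjusted p = 0.924, limma). FGFR1 supplied 76.3% ± 0.471 of the summed TPM of FGFR1 to FGFR4 in siNC and 73.3% ± 2.56 in siBCAT1 (exact permutation p = 0.2). FGF1, the ligand that binds every FGF receptor, rose from 13.0 ± 0.108 to 19.0 ± 2.71 TPM (log2 fold change 0.51, SE 0.11, adjusted p = 0.0144, limma), a call lost without siNC replicate 1 (0.0606) or siNC replicate 3 (0.0528).

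**Figure D3:**
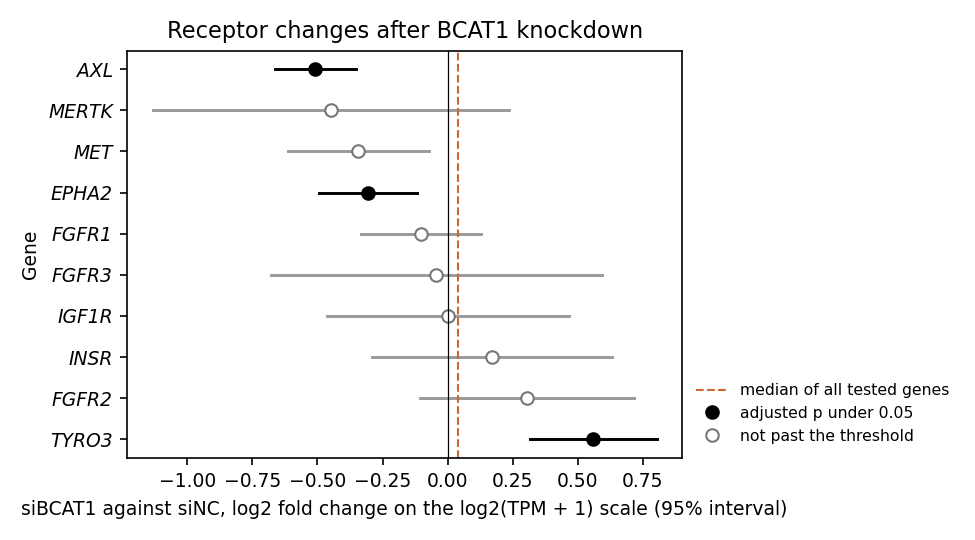
Log2 fold change of each of the 10 receptors, siBCAT1 over siNC on the log2(TPM + 1) scale, with its 95% interval from limma. Filled black points mark adjusted p under 0.05 and open grey points the rest. TYRO3 (0.56), AXL (-0.51) and EPHA2 (-0.30) passed, and the MERTK, FGFR3, IGF1R and INSR intervals are the widest and span 0.

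In siNC the receptors ranked AXL, EPHA2, FGFR1, MET, MERTK, TYRO3, IGF1R, INSR, FGFR2 and FGFR3 by mean TPM. The ranges of neighbours in this order overlapped for MERTK with TYRO3 and for IGF1R with INSR. In siBCAT1, EPHA2 (46.0 TPM) and AXL (44.2 TPM) overlapped at the top, and TYRO3 (22.4 TPM) came next to MET (23.8 TPM), with overlapping ranges. The summed level of the 10 receptors was 246, 254 and 247 TPM in siNC and 229, 203 and 214 TPM in siBCAT1. The groups did not overlap, with means of 249 ± 4.29 and 215 ± 12.8 TPM (exact permutation p = 0.1, adjusted 0.25). MET supplied 12.3% ± 1.63 of that sum in siNC and 11.1% ± 0.579 in siBCAT1, with overlapping ranges (exact permutation p = 0.3). The 10 genes are long, with a median length of 4505 bases in the deposited table against 2704.5 for tested genes, and had a median GC content of 51.5% against 48.5%.

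Of the 29 genes for ligands of these receptors, 7 were tested, and GAS6, FGF1 and EFNA5 rose and none fell (42.9%, limma). Among all tested genes, 27.1% passed, 16.7% upward and 10.4% downward. At an unadjusted p under 0.05 (limma), 3 ligands were higher and 2 lower. With the replicate block, median-ratio scaling or the GC and length correction 1 ligand fell as well, and without siNC replicate 2 the number that fell was 2. The other 22 never exceeded 1.29 TPM, and 7 of them were listed at 0 in every library. The median log2 fold change of the tested ligands was -0.24. Of 26 genes for proteins that bind, process or shed these ligands and receptors, 14 were tested, 5 rose and 2 fell (50%, against 27.1% of all tested genes). SDC1, a heparan sulfate proteoglycan that presents growth factors, rose from 23.2 ± 4.16 to 42.4 ± 4.75 TPM (log2 fold change 0.85, adjusted p = 0.00492, limma). IGFBP4, which holds insulin-like growth factors away from IGF1R, rose from 1.76 ± 0.45 to 4.05 ± 0.406 TPM (0.88, adjusted p = 0.0103, limma). IGF2R, which carries IGF2 to lysosomes, rose from 77.6 ± 6.40 to 102 ± 9.72 TPM (0.39, adjusted p = 0.0198, limma), and its call was lost without siNC replicate 1 (0.0757), siBCAT1 replicate 1 (0.0697) or siBCAT1 replicate 3 (0.0683), with no filter on low values (0.0558) and with quantile normalization (0.0502). TIMP1, an inhibitor of the metalloproteases that cut receptors from the surface, fell from 339 ± 35.8 to 234 ± 12.9 TPM (-0.53, adjusted p = 0.00441, limma). FURIN, the protease that matures the precursors of IGF1R, INSR and MET, fell from 64.2 ± 1.77 to 52.1 ± 1.78 TPM (-0.30, adjusted p = 0.0124, limma). The median log2 fold change of that list was -0.01, and at an unadjusted p under 0.05 (limma), 5 of its genes were higher and 4 lower. Under the GC and length correction with the replicate block, 5 rose and 5 fell, and under quantile normalization 3 rose and 3 fell.

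The 45 further receptors were the receptor tyrosine kinases outside the ERBB family and FGFRL1, an FGF receptor relative without a kinase domain. Of these, 15 were tested, 6 fell and none rose (40%, limma). Over all tested genes the share was 27.1%, with 16.7% rising and 10.4% falling. The median log2 fold change of the list was -0.22. At an unadjusted p under 0.05 (limma), 6 were lower and 1, FGFRL1, was higher. With the GC and length correction and the replicate block together, 1 gene of this list rose. The largest falls were of PDGFRB, the PDGF receptor of mesenchymal cells, from 5.49 ± 0.985 to 2.57 ± 0.486 TPM (-0.86, adjusted p = 0.0110, limma), EPHA4, a receptor for both classes of ephrins, from 5.47 ± 1.04 to 3.03 ± 0.418 TPM (-0.68, adjusted p = 0.0220), and ROR1, a WNT5A receptor, from 5.14 ± 1.15 to 2.93 ± 0.286 TPM (-0.63, adjusted p = 0.0309). EPHA4 lost its call without siNC replicate 1 (0.0679), siBCAT1 replicate 2 (0.0637) or siBCAT1 replicate 3 (0.0708), and ROR1 lost it without siNC replicate 1 (0.0807) or 2 (0.0649) or siBCAT1 replicate 1 (0.0935), 2 (0.0638) or 3 (0.0886). With no filter on low values neither passed (0.0749 and 0.0998). PDGFRB is also 1 of the fibroblast markers above. The other 3 that fell were DDR1, EPHB2 and RYK.

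Of 44 adaptors and proximal signalling genes, 41 were tested, 2 rose and 5 fell (17.1%, under the 27.1% of all tested genes, median log2 fold change -0.07). At an unadjusted p under 0.05 (limma), 5 were higher and 8 lower. The count depended on the fit: 4 rose and 6 fell with the replicate block or with the GC and length correction. Quantile normalization gave 2 rises and 9 falls. PTPN11, which encodes the phosphatase SHP2 that relays receptor signals to RAS, rose from 25.1 ± 4.08 to 56.4 ± 3.35 TPM (1.15, SE 0.12, adjusted p = 0.000967, limma), while its 5 pseudogenes stayed at or under 0.27 TPM. AKT1, a kinase of the PI3K branch, rose from 63.4 ± 4.32 to 89.9 ± 4.40 TPM (0.50, adjusted p = 0.00328, limma). CBLB, a ubiquitin ligase that sends active receptors for degradation, fell from 5.87 ± 0.881 to 2.68 ± 0.316 TPM (-0.89, adjusted p = 0.00537, limma). FRS2, the docking protein of the FGF receptors, fell from 8.53 ± 1.45 to 4.70 ± 0.888 TPM (-0.74, adjusted p = 0.0157, limma), a call lost without siNC replicate 1 (0.0600), siBCAT1 replicate 2 (0.0627) or siBCAT1 replicate 3 (0.0590), and with no filter on low values (0.0547). PIK3R3, a regulatory subunit of PI3K, fell from 4.07 ± 0.372 to 2.10 ± 0.649 TPM (-0.73, adjusted p = 0.0307, limma), a call lost without siNC replicate 1 (0.0974), siNC replicate 3 (0.0899), siBCAT1 replicate 2 (0.0692) or siBCAT1 replicate 3 (0.0600), and with no filter on low values (0.104). SHC1 and SRC were the other 2 that fell.

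All 13 genes of the transcriptional output of the MAPK cascade were tested, 4 fell and none rose (30.8%, limma). Of all tested genes, 10.4% fell and 16.7% rose, 27.1% in either direction. The median log2 fold change was -0.24, and at an unadjusted p under 0.05 (limma), 6 were lower and 1 higher. A rise did appear in some alternatives: 1 gene rose and 4 fell with the replicate block. With the GC and length correction and the replicate block together, 1 rose and 5 fell. Quantile normalization gave 6 falls and no rise. DUSP4, a phosphatase that switches ERK off, fell from 12.6 ± 1.04 to 6.79 ± 0.399 TPM (-0.80, SE 0.10, adjusted p = 0.00204, limma). DUSP5, which acts on nuclear ERK, fell from 17.1 ± 3.06 to 9.15 ± 1.59 TPM (-0.83, adjusted p = 0.0100, limma), with the call lost without siNC replicate 1 (0.0519), siNC replicate 3 (0.0502) or siBCAT1 replicate 1 (0.0502). SPRY1, a feedback inhibitor of receptor signalling, fell from 2.99 ± 0.297 to 1.39 ± 0.346 TPM (-0.75, adjusted p = 0.0226, limma), with the call lost without siNC replicate 1 (0.0600) or siBCAT1 replicate 2 (0.0506), and with no filter on low values (0.0777). The fourth was FOSL1, a subunit of AP-1.

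**Figure D4:**
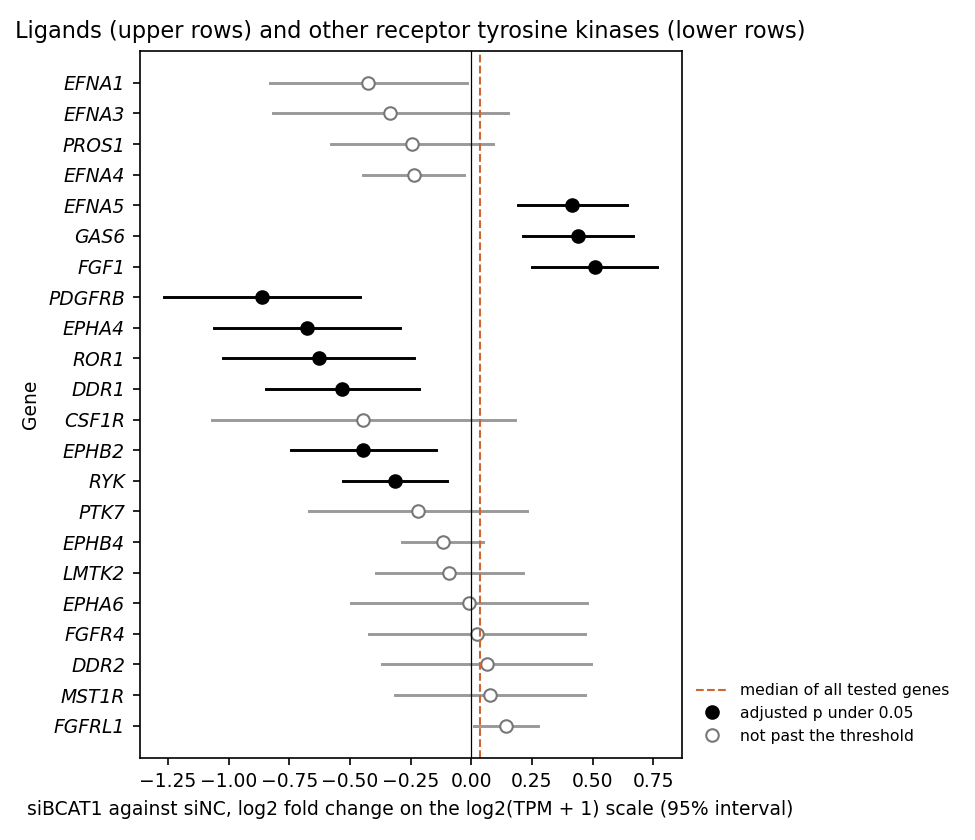
Log2 fold change, siBCAT1 over siNC on the log2(TPM + 1) scale, of each tested ligand and each tested other receptor tyrosine kinase. Each gene has 1 point with its 95% interval from limma, filled black for adjusted p under 0.05 and open grey otherwise. The other receptor tyrosine kinases hold filled points below 0 and none above it, while the ligands hold 3 above and none below.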

How the data were processed

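RNA-seq libraries of 67R cells (3 siNC, 3 siBCAT1) were grouped by their labels. Per the labels, total RNA was made into stranded mRNA libraries, and the submitters' processing notes name fastp, HISAT2, StringTie and GRCh38. Versions, annotation release and strand setting are not given in the sources used here. The authors deposited 1 TPM value per gene and library with a gene length. The unit was inferred from decimals, the gene length and the column sums. TPM holds no depth, so no counting error could be given. No deposited column of values was left unmapped (0 columns).

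Tests covered the 14286 of 60664 genes averaging 1 TPM or more and were made on log2(TPM + 1) with limma 3.58.1 in R 4.3.3 (trended eBayes, two-sided, Benjamini-Hochberg, threshold 0.05). Intervals are 95% and unadjusted. Shares were compared by exact permutation over libraries, two-sided. In simulated siBCAT1 against siNC data of 14286 genes, 200 genes were changed, all with a mean log2(TPM + 1) above 3. A share of 0.90 of genes changed by a log2 of 1 and 0.96 of those changed by 2 was called. There were 0 calls in the wrong direction and 7 false calls. Changes as small as those of the receptors, and changes of genes under that level, were not simulated. No 2 libraries had equal values in more than 1.42% of tested genes. Gene positions and GC content came from GENCODE 29 on GRCh38, with GC content for 99% of tested genes. The receptors, the gene lists and the tests were chosen with earlier results of these data known. The genes named were BCAT1, the 10 receptors, their main ligands whatever their result, and in each list at most 3 with the largest rise and 3 with the largest fall past the threshold. The antisense genes and pseudogenes, EFNA3, EFNA4, EPCAM, FGFRL1, CD68 and the remaining genes past the threshold of short lists were named after their values were seen. Alternatives were no filter, a filter at 5 TPM, the replicate number as a block, a pseudocount of 0.1, median-ratio scaling, quantile normalization, loess adjustment for GC content and length (span 0.5) alone and with the block, eBayes without trend, a minimum log2 fold change of 1, and each library left out. Tables were made in Python 3.11.15 with pandas 2.3.3 and numpy 2.4.6, and figures with matplotlib 3.10.9.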

Additional observations from a re-analysis of the deposited data

How the results depend on the processing

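AXL, TYRO3 and BCAT1 kept direction and call in all 15 alternative fits. The count of receptors that fell, 2 as reported, was 1 with no filter on low values, 1 after the GC and length correction, 1 without a variance trend, and 0 once a log2 fold change of at least 1 was required, under which the count that rose went from 1 to 0. It was 3, MET included, at a mean of at least 5 TPM, with median-ratio scaling and with quantile normalization. The count that fell lay between 1 and 2 when single libraries were left out. Receptors near 0 changed sign without passing: IGF1R at -0.0429 with median-ratio scaling, -0.0256 with quantile normalization and from -0.16 to 0.18 without single libraries, INSR at -0.037 without siBCAT1 replicate 1 and at up to 0.29 without other single libraries, and FGFR3 at 0.0163 after the GC and length correction, with or without the replicate block, and from -0.27 to 0.15 without single libraries. FGFR3 was dropped at a mean of at least 5 TPM. Ligand calls (3) ran from 0 to 5 without single libraries, 2 of the 5 being falls. Calls among ligand-handling genes (7) ran from 5 to 10 over all alternatives. Calls among other receptor tyrosine kinases (6) were 1 with no filter, 3 at 5 TPM and 1 to 3 without single libraries. Calls among adaptors (7) were 3 with no filter, 11 with quantile normalization, 11 with the GC and length correction and the replicate block, and 3 to 7 without single libraries. MAPK output (4) gave 2 with no filter, 6 with quantile normalization and 1 to 4 without single libraries. It gave 5 with the replicate block and 6 with the GC and length correction added to it, 1 being a rise in each. Over all genes, 3865 calls became 2567 with no filter. They became 2318, 3706 and 2503 without siNC replicates 1, 2 and 3, and 2411, 2444 and 2501 without siBCAT1 replicates 1, 2 and 3. Same-numbered libraries deviated together with correlations of 0.0844, 0.102 and 0.124, and other pairs between -0.0814 and -0.0134, so each library correlated best with its own number, as a hint only, since not every value passed 0.1. With the replicate block, 1 receptor rose and 2 fell as before, with 4568 calls over all genes and adjusted p (limma) of 0.00611 for AXL, 0.0172 for TYRO3, 0.0182 for EPHA2 and 0.0966 for MET. TPM without read counts limits what can be said of FGFR3 and other genes of a few TPM.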

Other observations

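Ratios within a library do not depend on its size factor, and the following were chosen after the values were seen, so they are given with no test. The ratio of AXL to TYRO3 in TPM was 4.88, 4.14 and 3.83 in siNC replicates 1 to 3 and 1.86, 1.92 and 2.17 in siBCAT1, with means of 4.28 ± 0.54 and 1.98 ± 0.162 (SD, n = 3 each). The ratio of AXL to its ligand GAS6 was 6.01, 5.38 and 6.17 in siNC and 2.95, 2.92 and 2.92 in siBCAT1, with the limit on GAS6 given above. The ratio of TYRO3 to GAS6 averaged 1.38 ± 0.201 in siNC and 1.49 ± 0.123 in siBCAT1, with overlapping ranges. A ratio shows unequal change of its 2 genes and not which of them changed.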
